A study of Homo sapiens with 12 samples.

Results

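The fatty acid-binding protein FABP7 and 5 related lipid-binding genes were examined in A375 cells, an established human melanoma line, by RNA sequencing. The 6 genes, chosen by symbol, were FABP7, FABP5, FABP3, CRABP1, CRABP2 and the fatty acid transporter CD36, among 4918 genes in the table. The table used here ran in alphabetical order from A1BG to FAM46B, so "all genes" below means these 4918 and not the whole transcriptome, and list or marker genes with later symbols were not analysed here. FABP7 had been picked out because it was among the genes furthest below control with SB-3CT, so the members' values in that comparison are given as a description without a test. The others were taken as genes of lipid binding and uptake. All 12 samples came from the same cell line, with 3 samples in each of 4 groups. Control cells carried the treatment label "none", SB-3CT cells received SB-3CT, an inhibitor of the gelatinases MMP2 and MMP9, IFNγ cells received the cytokine IFNγ, and SB-3CT + IFNγ cells received both. Treatment lasted 24 h, and the doses were not given for these samples. Nothing in the labels said whether replicates were separate cultures, so the p-values measure the spread between these samples, which may be technical. A single line of cultured tumor cells does not stand for melanoma in general or for the other cells of a tumor.

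Fatty acids are almost insoluble in water, and inside cells they travel bound to small barrel-shaped proteins of the intracellular lipid-binding family. FABP7, the brain type, binds long-chain polyunsaturated fatty acids, marks radial glia in the developing brain and is also found in melanocytic tumors. FABP5, the epidermal type, can carry fatty acids and retinoic acid to the nuclear receptor PPARδ, and FABP3 is the heart and muscle type. CRABP2 delivers retinoic acid to its nuclear receptor, CRABP1 holds it in the cytoplasm, and CD36 takes up fatty acids at the cell surface.

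Expression was given as FPKM, a fragment count scaled for transcript length and library size that can be compared between genes. Absolute sequencing depth was not given. Relative depth, read from the steps between the lowest values, ran from 87.1% of the control mean in replicate 3 to 150.1% in replicate 1, both of the IFNγ group. Changes were taken from log2(FPKM + 1), where the added 1 shrinks those of low genes, and were tested with limma with Benjamini-Hochberg adjustment over the 4918 genes at a threshold of 0.05. CXCL10, a chemokine induced by IFNγ, was at most 0.05 FPKM in the control and SB-3CT samples and between 78.7 and 122.5 FPKM in the samples given IFNγ, as labelled. Of 9 melanocyte and melanoma markers, 6 had a mean of at least 1 FPKM, among them CD63 at 661.9 FPKM, whereas DCT (0.15 FPKM), CAPN3 (0.09 FPKM) and ABCB5 (0.004 FPKM) were nearly absent. All 3 T cell markers in the table and all 4 fibroblast markers stayed under 1 FPKM in every sample. Each other list had a single marker with a mean above 1 FPKM, namely CD68 (macrophage, 26.0 FPKM), EGFL7 (endothelial, 14.2 FPKM), CLDN4 (epithelial, 8.69 FPKM), CFD (adipocyte, 1.39 FPKM) and CNP (glial, 41.1 FPKM).

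FABP7 and FABP5 were the only members with a mean above 1 FPKM. FABP7 was highest in the control cells and lower in all 3 treated groups, and FABP5 was highest in the cells that received both agents. The other 4 members had means under 1 FPKM in all 4 groups.

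**Figure D1:**
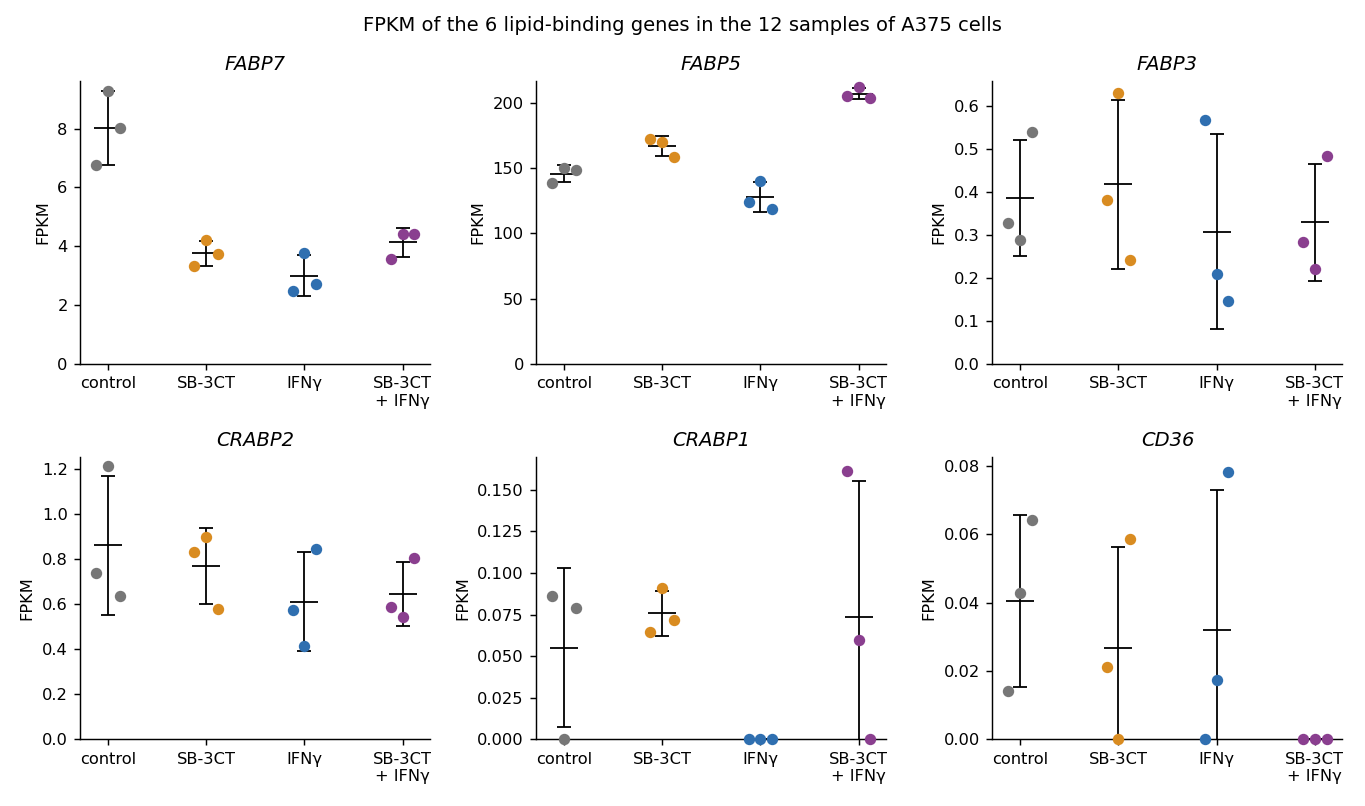
FPKM (y axis, linear from 0, a separate scale for each gene) of the 6 lipid-binding genes in the 4 groups (x axis), with points for the 12 samples and bars for the mean ± SD of 3 samples, cut at 0. All 3 control samples of FABP7, from 6.76 to 9.27 FPKM, sit above all 9 treated samples, and all 3 SB-3CT + IFNγ samples of FABP5, from 204 to 212 FPKM, sit above all others.

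FABP7 lies on chromosome 6 at 123100861 to 123105219 of GRCh37, on the forward strand, with 4 exons and a canonical transcript of 785 bases. Its promoter, from 250 bases before to 50 bases after the transcription start in RefSeq, is shown because FABP7 had the largest falls of the family and because the window can be read for common promoter elements. It spans chr6:122779466-122779765 of GRCh38.p14 on the forward strand, and the capitals mark 3 copies of the CCAAT box.

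FABP7 promoter: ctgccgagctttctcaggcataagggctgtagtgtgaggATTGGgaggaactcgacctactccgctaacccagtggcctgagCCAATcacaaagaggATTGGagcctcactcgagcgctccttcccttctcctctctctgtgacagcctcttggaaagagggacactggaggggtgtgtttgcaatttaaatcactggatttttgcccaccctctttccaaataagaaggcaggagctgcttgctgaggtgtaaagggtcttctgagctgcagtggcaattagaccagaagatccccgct

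The CCAAT letters stood at -168 on the gene's strand and, as ATTGG, at -211 and -153 on the other strand, counted from the transcription start. CCAAT was found on either strand in 34.6% of 35116 RefSeq promoter windows of this length. The letters of a GAS element, which marks many promoters that IFNγ activates (TTCNNNGAA, in 7.66% of windows), a TATA box (TATAAA, 11.5%), a GC box (GGGCGG, 45%), a nuclear receptor half-site (AGGTCA, 13.8%), a PPAR response element (a direct repeat of that half-site, 0.0228%), an RBPJ site (TGGGAA, 24%) and an antioxidant response element (TGACNNNGC, 13.3%) had no match on either strand of this window. A match or its lack describes only the letters of the window.

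The comparison of IFNγ with control cells asked how the cytokine alone changed these genes. FABP7 was 6.76, 9.27 and 8.02 FPKM in control replicates 1 to 3, and 2.46, 3.78 and 2.72 FPKM in the corresponding IFNγ samples. The groups did not overlap, and the highest IFNγ sample lay well under the lowest control. Such a gap downward was seen in 22% of all genes. The mean fell from 8.02 ± 1.25 to 2.99 ± 0.698 FPKM (SD, n = 3), which is 37.3% of the control mean. On the log2(FPKM + 1) scale the change was -1.18 (SE 0.16, 95% interval -1.56 to -0.80, limma adjusted p = 0.00425), among the 5 most negative of all 4918 genes. The exact permutation test of FABP7 alone gave p = 0.1, two-sided, the smallest value that 3 against 3 samples allow. These control samples were also used to choose FABP7, so this fall is not independent of that choice. In bulk RNA, fewer cells with FABP7 and less FABP7 RNA per cell cannot be told apart. Of the 3 glial markers in the table, ALDH1L1 and BCAS1 were at most 0.0741 and 0.0179 FPKM, while CNP, which many cells express, brought the list's sum to between 47.4 and 54.6 FPKM with IFNγ and between 34.8 and 42.9 FPKM in the other groups. The 3 adipocyte markers, mostly CFD, summed to between 1.75 and 1.84 FPKM in controls and between 0.951 and 1.23 FPKM with IFNγ. With SB-3CT they summed to between 1.57 and 1.91 FPKM and with both agents to between 1.41 and 2.07 FPKM, overlapping the controls. The part of either list in the fall of FABP7 was not tested.

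FABP7 was the only 1 of the 6 members to pass the test with IFNγ, where 19.5% of all genes passed, 8.46% higher and 11% lower. FABP5 was 139, 150 and 149 FPKM in the controls and 124, 140 and 119 FPKM with IFNγ. Its groups overlapped by a single IFNγ sample, and the change was -0.19 (SE 0.07, interval -0.37 to -0.02, adjusted p = 0.12 with limma). Without IFNγ replicate 2 it was -0.26 and passed, with an adjusted p of 0.028, but 5 of the 6 fits without a single sample did not pass. CRABP2 (-0.20, interval -0.55 to 0.15) and FABP3 (-0.09, interval -0.41 to 0.22) did not pass.

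SB-3CT alone was the comparison from which FABP7 had been chosen. FABP7 was 3.34, 4.21 and 3.73 FPKM in the 3 SB-3CT samples, all under the lowest control at 6.76 FPKM. The mean was 3.76 ± 0.435 FPKM, 46.9% of the control mean, and the difference of -0.92 (SE 0.12, interval -1.20 to -0.63) was among the 6 most negative of all genes. Of all genes, 12.2% passed the test in this comparison (5.37% higher and 6.87% lower), 19.7% lay without overlap below the controls and 14.2% above them. FABP5 was 173, 170 and 158 FPKM in the same samples, all above the highest control at 150 FPKM, and its difference of 0.19 (interval 0.07 to 0.32) was a small one, 1.15-fold. CRABP2 (-0.07, interval -0.36 to 0.23) and FABP3 (0.03) had samples that overlapped the controls.

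SB-3CT added to IFNγ, against IFNγ alone, shares no sample with the comparison that chose FABP7. FABP7 was 3.57, 4.40 and 4.43 FPKM with both agents. These values overlapped those with IFNγ alone, since the lowest sample with both lay under the highest with IFNγ, at 3.78 FPKM. The change was 0.37 (SE 0.14, interval 0.05 to 0.70), 1.38-fold, and did not pass at an adjusted p of 0.0733 with limma (exact permutation p = 0.2, two-sided). Without IFNγ replicate 2 the change was 0.51 with an adjusted p of 0.0169, but 5 of the 6 fits without a single sample did not pass. With each sample scaled by its median ratio the change was 0.58 (adjusted p = 0.0314). With the trend in transcript length removed, a setting chosen after the data were seen, it was -0.12 (adjusted p = 0.418).

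Against SB-3CT alone, adding IFNγ left FABP7 at 0.11 (SE 0.11, interval -0.15 to 0.37, adjusted p = 0.467 with limma). Its sign was not settled, since other settings gave FABP7 values from -0.24 to 0.32 and none passed. The SB-3CT samples of this comparison are among those that chose FABP7. In order of mean level, FABP7 thus ran from control through SB-3CT + IFNγ (4.13 ± 0.487 FPKM, 51.6% of control) and SB-3CT to IFNγ. The samples of SB-3CT + IFNγ and SB-3CT overlapped, as did those of SB-3CT and IFNγ, while the controls overlapped no other group. The SB-3CT difference with IFNγ minus that without it was 1.29 for FABP7 (SE 0.20, interval 0.86 to 1.72), given without a test because it contains the comparison that chose the gene. Of all genes, 22.3% passed the test of this difference.

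FABP5 lies on chromosome 8 at 82192771 to 82197012 of GRCh37, on the forward strand, with 4 exons and a transcript of 676 bases. It was the most abundant member by more than an order of magnitude in every group. In the cells given both agents it was 205, 212 and 204 FPKM, above every sample of the other 3 groups. Against IFNγ alone it rose from 127.7 ± 11.4 to 207.1 ± 4.30 FPKM, 1.62-fold, or 0.70 on the log2 scale (SE 0.07, interval 0.53 to 0.86, adjusted p = 0.00207 with limma). It was the only 1 of the 6 members called, where 37.9% of genes were called, 31.5% lower and 6.41% higher, and 9.35% lay higher without overlap. A rise at least as large was seen in 23 genes, FABP5 included.

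The rise of FABP5 was also seen against SB-3CT alone. The level went from 167.0 ± 7.66 to 207.1 ± 4.30 FPKM, 1.24-fold, or 0.31 on the log2 scale (SE 0.04, interval 0.20 to 0.42, adjusted p = 0.00322 with limma). With the median ratio this FABP5 rise was 0.57. FABP5 was the only member called here too, and 40.5% of all genes were called, 7.85% higher and 32.7% lower, and 9.84% lay higher without overlap. Both comparisons use the same 3 samples with both agents. The exact permutation test gave p = 0.1 in each, the smallest possible. The SB-3CT difference with IFNγ minus that without it was 0.50 (SE 0.09, interval 0.31 to 0.70).

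**Figure D2:**
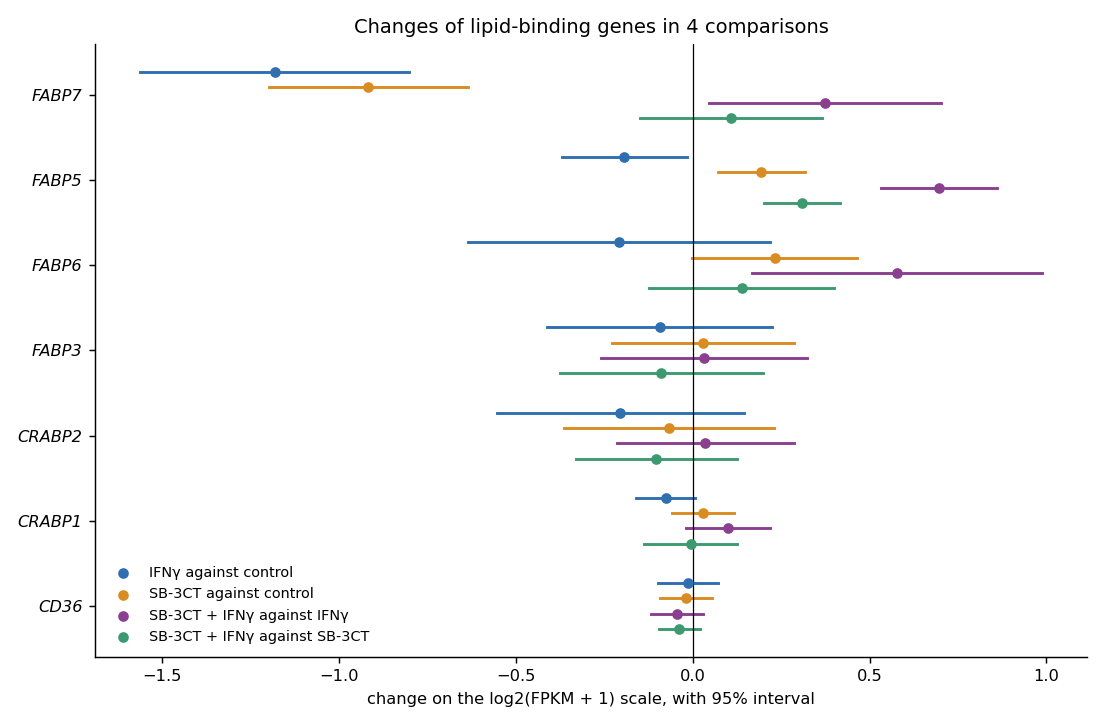
Change on the log2(FPKM + 1) scale (x axis) of the 6 lipid-binding genes and FABP6 (y axis) in the 4 comparisons, with points for the change and lines for its 95% interval from 3 against 3 samples. FABP7 lies at -1.18 for IFNγ against control, with an interval wholly below 0, though the same controls served to choose it. It lies at -0.92 for SB-3CT against control, the comparison that chose it, shown as a description without a test. The interval of FABP5 lies highest for SB-3CT + IFNγ against IFNγ, at 0.70.

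Transcript length moved with the same comparison. For SB-3CT + IFNγ against IFNγ, genes with transcripts under 1000 bases had a median change of 0.27 (222 genes with a mean of at least 1 FPKM), and longer ones -0.22 (2900 genes), and Spearman's rho between length and change was -0.62 over 3122 genes, which share libraries and are not independent. Among the short genes, 5.41% rose more than FABP5 there, and 30.2% did with both agents against SB-3CT. The same medians were 0.15 and -0.24 against SB-3CT, and -0.11 and -0.04 for IFNγ against control. With each sample's trend in length removed, chosen after the data were seen, FABP5 was at 0.15 against IFNγ (adjusted p = 0.0998) and -0.09 against SB-3CT (adjusted p = 0.383). With the summed FPKM of each sample also kept, these were 0.40 (adjusted p = 0.00581) and 0.08 (adjusted p = 0.407). FABP7, of similar length, kept its fall with IFNγ under both settings, at -1.11 (adjusted p = 0.00115) and -1.13 (adjusted p = 0.00165). The part of length in the rise of FABP5 was not tested further.

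**Figure D3:**
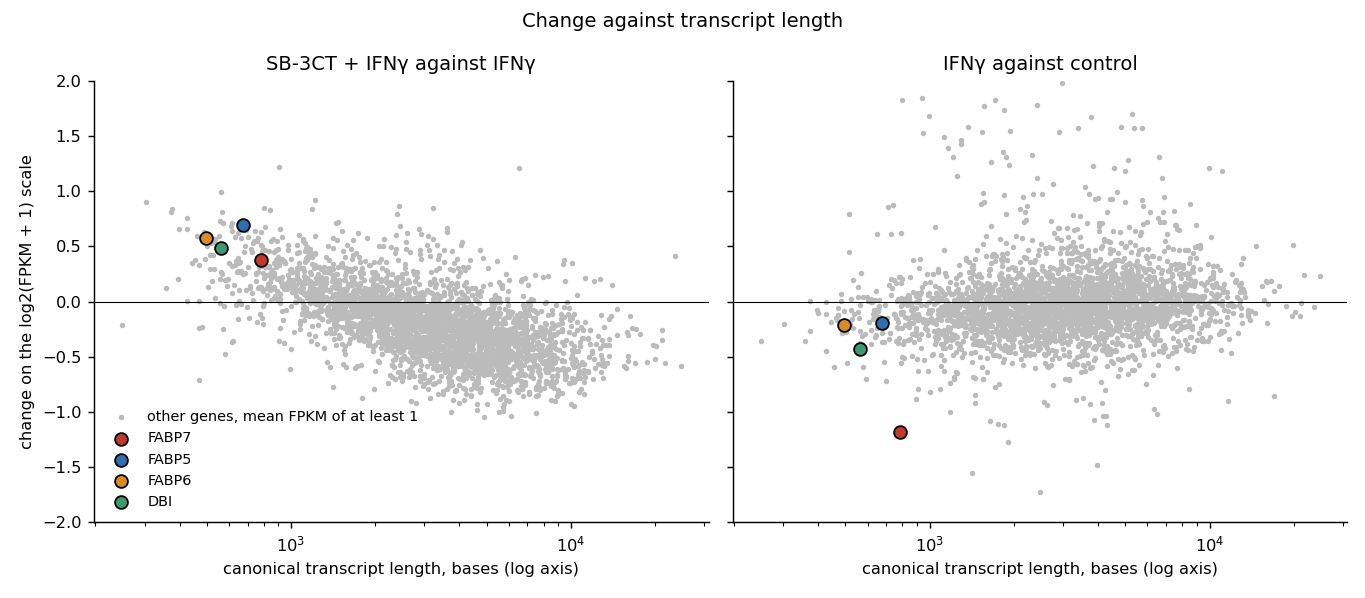
Change on the log2(FPKM + 1) scale (y axis) against canonical transcript length in bases (x axis, log scale) for genes with a mean of at least 1 FPKM, for SB-3CT + IFNγ against IFNγ (3152 genes, 1 outside the axis) and IFNγ against control (3119 genes, 34 outside). Short transcripts sit above long ones in the former, where FABP5 lies at 0.70, and FABP7 lies far below the bulk of genes in the latter, at -1.18.

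Reads of FABP5 can be shared with its processed pseudogenes. The annotation held 15 of them, of which FABP5P3 matched the FABP5 transcript at 96.0% of 676 bases and FABP5P7 at 100% of 405 bases. FABP5P3 was the only 1 with a row in the table, at no more than 0.13 FPKM, and how reads that fit several places were shared out was not stated. The level of FABP5 is uncertain to that extent. For FABP7 the closest copy, FABP7P1, matched at 86.9% of 396 bases.

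The 2 cellular retinoic acid-binding proteins were low. CRABP2, on chromosome 1 at 156669398 to 156675608 with 4 exons on the reverse strand, was 0.738, 1.21 and 0.634 FPKM in controls and 0.829, 0.896 and 0.578 FPKM in SB-3CT cells. It was 0.573, 0.415 and 0.846 FPKM in IFNγ cells and 0.586, 0.545 and 0.806 FPKM in cells given both. All 4 groups overlapped. SB-3CT on top of IFNγ gave a change of 0.04 (interval -0.21 to 0.29, adjusted p = 0.829 with limma). CRABP1, on chromosome 15 at 78632695 to 78640567 on the forward strand, was at most 0.161 FPKM, and it was listed at 0 in all 3 IFNγ samples, 1 control sample and 1 sample with both agents. No fold is given for a gene so close to 0.

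FABP3 and CD36 were likewise low. FABP3, on chromosome 1 at 31838100 to 31849697 on the reverse strand, ran from 0.146 to 0.631 FPKM over the 12 samples. Its mean was 0.418 ± 0.197 FPKM with SB-3CT, 0.385 ± 0.135 in controls, 0.329 ± 0.137 with both agents and 0.307 ± 0.227 with IFNγ, and all groups overlapped. CD36, on chromosome 7 at 79998891 to 80308593 on the forward strand with 15 exons, was at most 0.0783 FPKM and was listed at 0 in all 3 samples with both agents. At these levels a difference could not be seen.

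Of the 11 genes listed for the intracellular lipid-binding family, 7 had a row here, and FABP6 and FABP4 were the rows that were not among the 6 members. FABP6, the ileal type that binds bile acids, lies on chromosome 5 at 159614374 to 159665742 of GRCh37. It was 1.68, 3.33 and 2.44 FPKM with IFNγ and 3.70, 3.97 and 4.70 FPKM with both agents, without overlap, though its spread with IFNγ was wide. It rose by 0.58 (SE 0.18, interval 0.17 to 0.99, adjusted p = 0.0355 with limma), or 1.66-fold. Its transcript is short, at 496 bases, and with the length trend removed the change was -0.08 (adjusted p = 0.611). Without moderation the adjusted p was 0.128. Leaving out single samples gave adjusted p-values from 0.0145, without IFNγ replicate 2, to 0.138, and 5 of the 6 such fits did not pass. Against control, FABP6 gave 0.23 with SB-3CT (adjusted p = 0.169) and -0.21 with IFNγ (adjusted p = 0.479). FABP4, the adipocyte type, was at most 0.275 FPKM.

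Fatty acids become usable once acyl-CoA synthetases activate them and acyl-CoA-binding proteins carry the product. The list of uptake, activation and acyl-CoA-binding genes held 29 rows besides CD36. With IFNγ against control 6 of them rose and 4 fell, with SB-3CT against control 1 rose and 3 fell, with both agents against IFNγ 2 rose and 13 fell, and with both against SB-3CT 5 rose and 7 fell. The median change of the list's genes with a mean of at least 1 FPKM was -0.20 with both agents against IFNγ, and that of all such genes was also -0.20. Of all genes, 6.41% rose and 31.5% fell there, 7.85% rose and 32.7% fell with both against SB-3CT, 8.46% rose and 11% fell with IFNγ, and 5.37% rose and 6.87% fell with SB-3CT. The balance of the list depended on scaling. With the median ratio, which set the median of all genes to 0.02, 7 rose and 6 fell with both against IFNγ, and 6 rose and 3 fell with both against SB-3CT. With the length trend removed, the latter became 4 and 10.

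The acyl-CoA synthetases, which activate long-chain fatty acids, moved in different directions. ACSL5 rose with IFNγ from 0.738 ± 0.0792 to 14.5 ± 1.43 FPKM (change 3.15, SE 0.09, adjusted p = 5.69e-06 with limma), and it fell with both agents against IFNγ to 9.74 ± 0.536 FPKM (-0.52, adjusted p = 0.00374), a fall that passed but shrank to between -0.31 and -0.26 with either other scaling or with the length trend removed and summed FPKM kept. ACSL1 rose with IFNγ from 5.27 ± 0.313 to 11.3 ± 0.997 FPKM (0.98, adjusted p = 0.000618). ACSL3, by contrast, fell in all 4 comparisons. Its mean went from 38.6 ± 2.72 FPKM in controls to 25.6 ± 1.89 with IFNγ, 23 ± 0.636 with SB-3CT and 16.1 ± 1.05 with both, with limma adjusted p-values from 0.00153 to 0.00365. With the median ratio the ACSL3 falls with both agents were -0.39 against IFNγ and -0.24 against SB-3CT, and both passed. ACSL4, which prefers arachidonic acid, fell with both agents against IFNγ, by 0.66 on the log2 scale (adjusted p = 0.0032). The ACSL4 fall passed but was only -0.36 with quantile normalization and -0.30 with the length trend removed and summed FPKM kept. With SB-3CT alone ACSL4 was at -0.48 (adjusted p = 0.0319), a call lost in 5 of the 6 fits without a single sample, with adjusted p up to 0.124.

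The acyl-CoA-binding protein DBI was, like FABP5, an abundant short transcript, and unlike FABP5 it had a lower mean with SB-3CT alone than in controls. That difference was -0.26 (adjusted p = 0.0327 with limma). None of the 6 fits without a single sample passed, with adjusted p up to 0.123. With the median ratio it was -0.22 (adjusted p = 0.104) and did not pass. The level of DBI was 272 ± 16.2 FPKM in controls, 202 ± 29.3 with IFNγ, 227 ± 9.00 with SB-3CT and 282 ± 12.6 with both. It rose with both agents against IFNγ by 0.49 (SE 0.10, adjusted p = 0.00904 with limma), but was at -0.12 with the length trend removed, and without IFNγ replicate 3 the adjusted p was 0.0523. The thioesterase ACOT13, which splits acyl-CoA, fell by 0.38 with IFNγ (adjusted p = 0.00955) and rose by 0.51 with both agents against IFNγ (adjusted p = 0.00342), or by 0.81 with quantile normalization. The peroxisomal acyl-CoA-binding ACBD5 went the other way, at 0.47 (adjusted p = 0.0431) and -0.58 (adjusted p = 0.0098). Leaving out single samples ended the former call in 5 of 6 fits, with adjusted p up to 0.138. It ended the latter without IFNγ replicate 1 (0.0577), IFNγ replicate 3 (0.0544) or replicate 3 of both agents (0.0521). The latter was also lost with quantile normalization (-0.33, adjusted p = 0.0603) and with the length trend removed and summed FPKM kept (-0.26, adjusted p = 0.103).

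PPAR receptors switch on genes of fatty acid use, and the list of their targets held 32 rows besides the members, some also in the list above. With IFNγ 4 rose and 3 fell, with SB-3CT 3 rose and 4 fell, with both agents against IFNγ 3 rose and 12 fell, and with both against SB-3CT 4 rose and 10 fell. With the median ratio the last 2 comparisons gave 7 higher and 4 lower, and 6 higher and 3 lower. With quantile normalization they gave 4 higher and 4 lower, and 5 higher and 6 lower. With the length trend removed they gave 1 higher and 15 lower, and 3 higher and 14 lower. The direction of the list thus depended on the setting. The shares of all genes that rose and fell, given for the list above, are the background of these counts too, and for both agents against IFNγ they were 6.41% and 31.5%. ANGPTL4, a secreted inhibitor of lipoprotein lipase, was the gene that rose most with SB-3CT in any of the lists, from 1.05 ± 0.0602 to 6.19 ± 0.539 FPKM (1.80, SE 0.09, adjusted p = 0.000152 with limma). It also rose with IFNγ, to 4.10 ± 0.204 FPKM (1.31, adjusted p = 7.63e-05), and stood at 6.60 ± 0.376 FPKM with both. CPT1A, the gate to mitochondrial fatty acid oxidation, fell from 7.95 ± 0.346 with SB-3CT to 4.12 ± 0.0634 FPKM with both (-0.80, adjusted p = 0.000312).

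Retinoid metabolism was read because CRABP1, CRABP2 and FABP5 carry retinoic acid, and 15 rows of its list were not members. Of these, 1 rose and 4 fell with IFNγ, 3 rose and 2 fell with SB-3CT, 3 rose and 3 fell with both agents against IFNγ, and 2 rose and 3 fell with both against SB-3CT. The shares of all genes called were 19.5%, 12.2%, 37.9% and 40.5% in that order. For both against IFNγ the counts were 4 and 1 with the median ratio, and 4 and 0 with the length trend removed and summed FPKM kept. Of the list's 18 rows, members included, only 6 or 7 had a mean of at least 1 FPKM in a comparison. Some calls were of low genes. AKR1B10, at 0.647 ± 0.0815 FPKM in controls, fell with IFNγ (-0.46, adjusted p = 0.0207 with limma). With SB-3CT it rose to 1.82 ± 0.350 FPKM (0.77, adjusted p = 0.00897). AKR1C3, a reductase that also acts on retinaldehyde, stood at 28.5 ± 0.910 FPKM in controls and rose to 45.6 ± 3.64 with SB-3CT (0.66, adjusted p = 0.00285 with limma). It fell to 16.7 ± 0.370 with IFNγ (-0.74, adjusted p = 0.00014) and was 30.7 ± 1.66 FPKM with both. Its near-identical paralogs can share reads with it. ALDH1A3, which makes retinoic acid from retinaldehyde, fell from 140 ± 9.03 with SB-3CT to 101 ± 2.84 FPKM with both (-0.47, adjusted p = 0.00174), and the ALDH1A3 fall was -0.21 with the median ratio and -0.28 with the length trend removed and summed FPKM kept, passing in both. DHRS3, which turns retinaldehyde back to retinol, fell with SB-3CT from 42.1 ± 2.32 to 32.8 ± 1.82 FPKM (-0.35, adjusted p = 0.0169), and 5 of the 6 fits without a single sample did not pass, with adjusted p up to 0.0728.

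**Figure D4:**
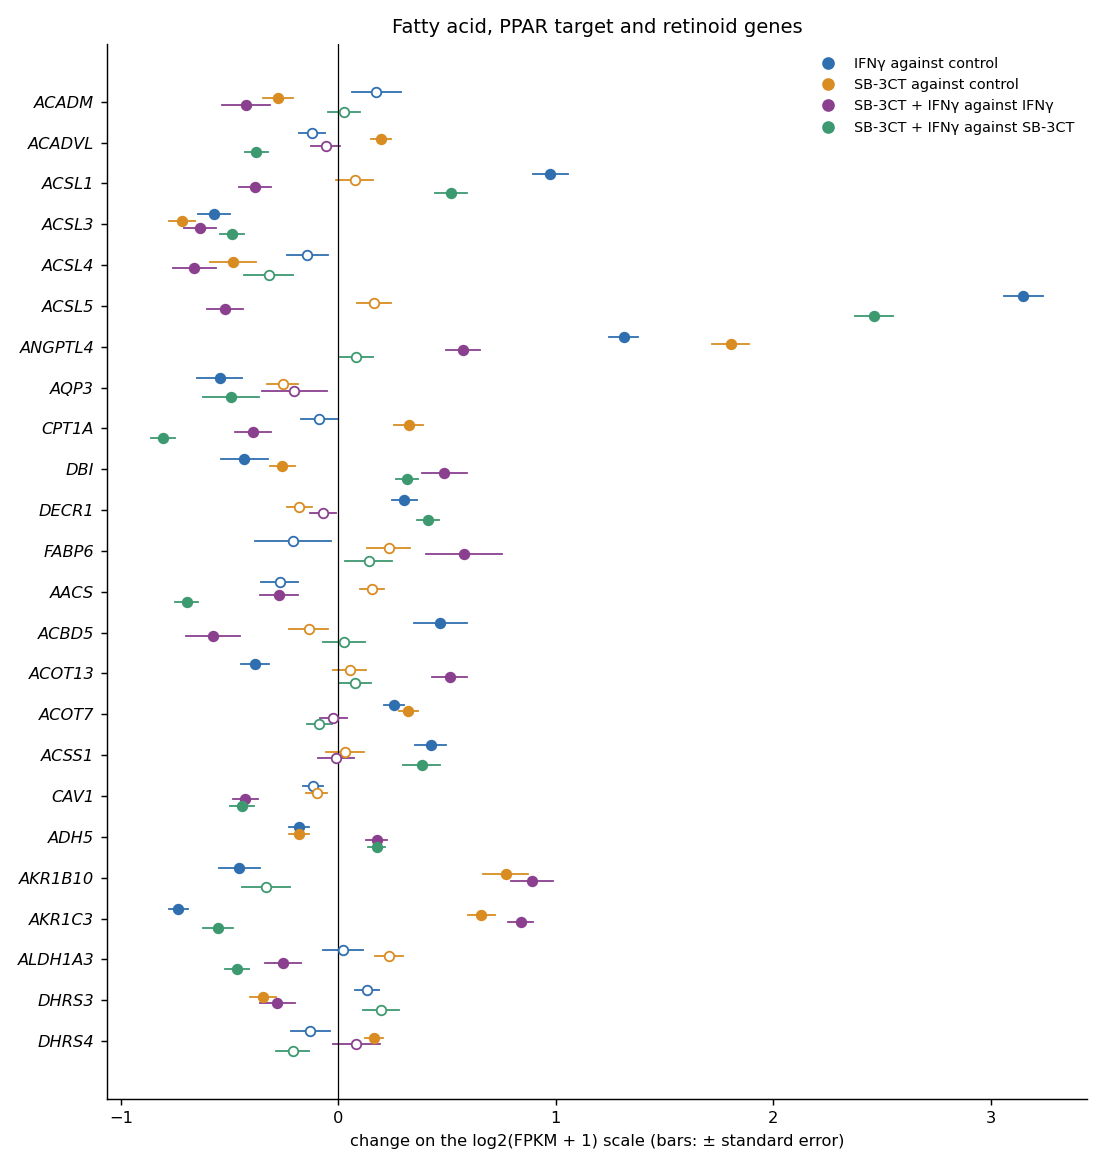
Change on the log2(FPKM + 1) scale (x axis, bars for ± the standard error) of the 24 named fatty acid, PPAR target and retinoid genes that are not members (y axis) in the 4 comparisons, with filled points for a limma adjusted p under 0.05 and open points for the others. ACSL5 stands out with IFNγ at 3.15 and ANGPTL4 with SB-3CT at 1.80, whereas ACSL3 lies below 0 in all 4 comparisons.

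Genes whose levels followed FABP7 were ranked by Pearson's r of log2(FPKM + 1) over the 12 samples, among 3176 genes with a mean of at least 1 FPKM. The highest were BPHL (0.95), CBWD1 (0.94), CSRP2 (0.92), DPM1 (0.91) and ATP5F1 (0.90). The lowest were DFNA5 (-0.96), ENO1 (-0.95) and CSRNP1 (-0.94), where 90% of genes fell between -0.65 and 0.65. These r values are a description, since the samples form 4 treatment groups and share their depth and scaling. CSRP2, a LIM-domain protein, was at 57.3% of its control mean with IFNγ, 76.9% with SB-3CT and 72.3% with both. It was lowest with IFNγ, as was FABP7, but lower with both agents than with SB-3CT, where FABP7 was higher. DFNA5, a gasdermin, stood at 147%, 140% and 140%, and the glycolytic enzyme ENO1 at 118%, 115% and 110%. For FABP5 the highest were ATP5I (0.96), CCNB1IP1 (0.96) and ATP6V0E1 (0.96), where 90% of genes fell between -0.89 and 0.70, a wider spread than for FABP7.

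**Figure D5:**
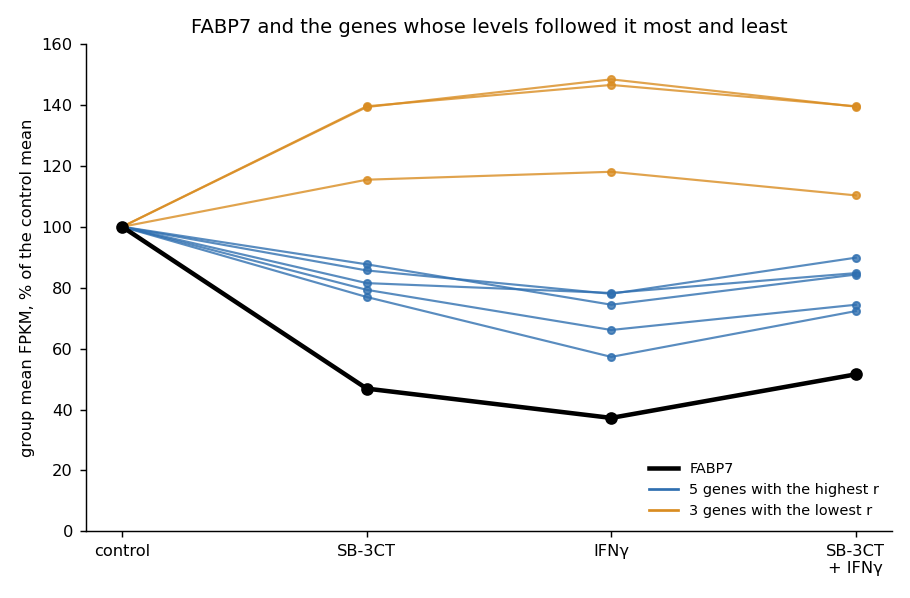
Group mean FPKM as a percentage of the control mean (y axis) in the 4 groups (x axis) for FABP7, the 5 genes with the highest r to it and the 3 with the lowest, with lines joining the means of 3 samples. FABP7 drops to 37.3% with IFNγ, the 5 like genes lie between 57.3% and 78.3% there, and the 3 unlike genes lie between 118% and 148%.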

How the data were processed

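Total RNA of A375 cells was sequenced by the authors as paired-end libraries, and per the submitters' processing notes reads were mapped to hg19 with HISAT2 (version 2.0.5) and quantified with StringTie (version 1.3.3). The gene annotation was not given in the sources used here. The deposited table held log2 values, found from their range and low-value steps to be log2(FPKM + 1) without read counts, for 4918 genes with symbols from A1BG to FAM46B, of which 3978 were above 0 in all samples. It was used with no filter, and absolute depth, and so counting error, is unknown.

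Changes were fitted with limma (version 3.58.1, R 4.3.3) with a mean-variance trend, 3 against 3 samples without pairing, with a pseudocount of 1 and Benjamini-Hochberg adjustment over all genes. The scripts were tested on simulated data. Exact permutation tests were two-sided. The members, gene lists and tests were chosen with earlier results of these data known. Beside the members and family, the text names, per list and comparison, up to 3 of the largest rises and falls with a mean of at least 1 FPKM past the threshold, and the genes most like the members. A gene that this rule named is not reported here. The replicate numbers did not pair the samples. Coordinates on GRCh37 are from GENCODE, and promoters from RefSeq on GRCh38.p14. Transcript lengths were matched for 99.1% of symbols. Alternatives were another pseudocount, filter, scaling, joint fit, block, unmoderated test, single samples left out and, chosen after the data were seen, removal of the length trend.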

Additional observations from a re-analysis of the deposited data

Results flagged for a closer look

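The change made by SB-3CT with IFNγ was compared with that made without it in an interaction term (limma adjusted p over all genes) for the 24 named genes of the 3 lists that are not members, and 12 of them passed. These genes were named for large changes in the comparisons that make up this term, so the count is not evidence about the lists. Of all genes, 22.3% passed. The members were left out because that term contains the comparison that chose FABP7.

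The largest difference was that of ANGPTL4, which SB-3CT moved by 1.80 without IFNγ and by 0.57 with it (difference -1.23, adjusted p = 0.000289). DBI moved by -0.26 without and 0.49 with IFNγ (difference 0.75, adjusted p = 0.00552), and CPT1A by 0.32 and -0.39 (difference -0.72, adjusted p = 0.0032). ACSL5 moved by 0.16 and -0.52 (difference -0.69, adjusted p = 0.00648). ACOT13 moved by 0.05 and 0.51 (difference 0.46, adjusted p = 0.00987), and ADH5, the formaldehyde-clearing alcohol dehydrogenase, by -0.18 and 0.18 (difference 0.36, adjusted p = 0.00552). These 6 also passed under both other scalings tried, by the median ratio and by quantiles. With the length trend removed, however, SB-3CT moved DBI by -0.32 without IFNγ and by -0.12 with it. The rise of DBI when SB-3CT was added to IFNγ was thus not kept.

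The other 6 did not pass with the median ratio. They were AACS (difference -0.43, adjusted p = 0.0163), ACADVL (-0.26, adjusted p = 0.0456), ACOT7 (-0.34, adjusted p = 0.0103), ACSL1 (-0.46, adjusted p = 0.0156), ALDH1A3 (-0.49, adjusted p = 0.0125) and CAV1 (-0.33, adjusted p = 0.0128). With quantile normalization ACADVL, ACOT7, ACSL1 and ALDH1A3 passed, and AACS and CAV1 did not. ALDH1A3 missed narrowly with the median ratio (limma adjusted p = 0.0504). The part of transcript length in these differences was not tested.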

How the results depend on the processing

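FABP7's fall with IFNγ kept its direction and passed under every alternative run, with changes from -1.41 to -1.08 and adjusted p-values from 3.48e-05 to 0.0338. For both agents against IFNγ, 2 members (FABP5 and FABP7) instead of 1 were called with a mean of at least 1 FPKM, the median ratio, quantile normalization and all 4 groups in one fit, 0 with the length trend removed, and 1 to 2 without single samples. For IFNγ against control 2 (FABP7 and FABP5) were called with all 4 groups in one fit and without IFNγ replicate 2. Leaving out control replicate 2 also gave 2, FABP7 and a member under 1 FPKM, since FABP5 did not pass (limma adjusted p = 0.289). Each other sample left out gave 1. For both against SB-3CT 0 were called with the length trend removed and summed FPKM kept. With only the length trend removed the 1 call was a member under 1 FPKM, since FABP5 (limma adjusted p = 0.383) and FABP7 (0.0657) did not pass. The filter gave no value for FABP3, CRABP1, CRABP2 and CD36.

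The difference between the SB-3CT changes was 1.54 for FABP7, 0.45 for CRABP1 and -0.20 for CD36 with a pseudocount of 0.1. It was 0.72 for FABP5 with the median ratio, 0.38 for FABP5 and 1.53 for FABP7 with quantile normalization, 0.017 for FABP5, 0.86 for FABP7 and -0.17 for CRABP2 with the length trend removed, and 0.23 for FABP5 and 1.07 for FABP7 with summed FPKM kept.

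Genes called went from 602 to 907 with the filter, 259 with the replicate block and 84 without moderation for SB-3CT against control, and to 73 to 912 without single samples. For IFNγ against control they went from 958 to 602 without moderation, and 562 to 982 without single samples. For both agents they went from 1862 to 934 against IFNγ (1230 to 1977 without single samples) and from 1994 to 1298 against SB-3CT with the length trend removed and summed FPKM kept, and to 1179 against SB-3CT with the median ratio. The median ratio also took the share of lower calls from 83.1% to 48.4%, from 56.6% to 45.6% and from 80.6% to 42.7% for both against IFNγ, IFNγ against control and both against SB-3CT.

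With the length trend removed, FABP6 (-0.080) and DBI (-0.12) against IFNγ and FABP5 (-0.094) against SB-3CT turned direction, as did ALDH1A3 (0.028) against IFNγ with summed FPKM kept. Of the 81 single-gene results, 47 were counted as unchanged under every alternative, and 36 of these also kept their sign. The other 11 had no call. The 81 include the members' values for SB-3CT against control, which were not tested and so had no call to keep. FABP5 and FABP7 in that comparison were counted as unchanged without a test, so the 47 are not all calls that held. The replicate block gave 1609, 775 and 1361 genes in the other 3 comparisons. Same-numbered samples did not deviate together, with correlations between -0.39 and 0.17. The causes of these shifts were not tested. Without depth, the 4 members under 1 FPKM allow no statement on small changes.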
